A study of Homo sapiens with 3 samples.

Results

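The inflammatory miRNAs hsa-miR-146a-5p, hsa-miR-146b-5p and hsa-miR-155-5p were followed in cells of the human melanoma line SK-MEL-2 after exposure to a plasma jet, in a series on how such plasma slows melanoma growth. They were chosen by name for their known link to the transcription factor NF-kB, and all 3 were present among the 2588 mature human miRNAs listed for every library. All 3 also averaged 20 counts or more over the libraries, a minimum for comparison that 231 of the listed miRNAs met and that defines the measured miRNAs below. A plasma jet is a stream of partly ionised gas, applied here without heat and known to bring reactive oxygen and nitrogen species to cells. The groups were untreated control cells, cells given 3 min of plasma jet and cells given 5 min of plasma jet, all cultured in RPMI-1640 with serum and antibiotics and collected on Day 2. Each group was 1 small-RNA library, so no value below has a replicate check, no significance test was possible, and each ratio compares libraries.

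NF-kB is held in the cytoplasm of resting cells and enters the nucleus when Toll-like receptors, cytokine receptors or DNA damage activate its kinases. miR-146a is switched on by NF-kB and represses TRAF6 and IRAK1, proteins that carry the signal from those receptors. It is therefore known as a brake on the pathway. miR-146b is its paralog from another chromosome. miR-155 comes from the non-coding transcript MIR155HG, is induced by NF-kB and AP-1 in activated immune cells, and represses SOCS1 and INPP5D, which are themselves inhibitors of inflammatory signalling. miR-146a has also been studied in melanoma, where NUMB, an inhibitor of Notch, is among its reported targets.

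The mature sequences are shown because the seed, bases 2 to 8 from the 5′ end, largely decides which mRNAs a miRNA represses, and because similar sequences can share reads. They are RefSeq sequences on GRCh38.p14, written 5′ to 3′ with the seed in capitals.
miR-146a-5p: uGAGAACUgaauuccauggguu
miR-146b-5p: uGAGAACUgaauuccauaggcug
miR-155-5p: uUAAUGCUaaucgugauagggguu
The miR-146 paralogs have the same seed and are identical at 20 of 22 aligned bases. The differences, given as the base in miR-146a-5p, the position from the 5′ end and the base in miR-146b-5p, were G18A and U21C, both outside the seed. miR-146b-5p also has 1 base more, at 23 bases against 22. Only miR-7153-5p of the other listed miRNAs found in the RefSeq table has that seed, and it had 0 counts in all 3 libraries. miR-155-5p, of 24 bases, was the only listed miRNA in that table with its seed. When shifts of a few bases were allowed, no other mature sequence of the 2369 compared came within 3 mismatches of miR-155-5p, and only the paralog did so for each miR-146. The separate values of miR-146a-5p and miR-146b-5p are therefore uncertain where reads were too short or too loosely aligned to reach base 18, and their sum is given beside them.

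All 3 are on plus strands. MIR146A (chr5:160485352-160485450) lies in an exon of the long non-coding RNA MIR3142HG in GENCODE 29 on GRCh38. MIR155 (chr21:25573980-25574044) lies in an exon of MIR155HG. MIR146B (chr10:102436512-102436584) overlaps no other annotated gene, and the nearest is CUEDC2, 3851 bases away. The hairpins of the paralogs are shown with the 5p arm in capitals, since it is the arm from which nearly all reads came.
MIR146A: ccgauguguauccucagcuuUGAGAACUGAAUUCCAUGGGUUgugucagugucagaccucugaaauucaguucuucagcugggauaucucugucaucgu
MIR146B: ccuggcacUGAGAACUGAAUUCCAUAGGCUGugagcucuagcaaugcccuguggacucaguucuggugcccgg
The hairpins are 99 and 73 bases long.

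The starts of the host transcripts were searched for letters of the transcription factors named above. Windows of 300 bases, 250 before and 50 after the RefSeq start, are shown with matches in capitals. The motifs, on either strand, were the NF-kB consensus of 10 letters and the AP-1 site TGAGTCA, which did not overlap each other in these windows.
MIR3142HG, chr5:160468001-160468300, plus strand: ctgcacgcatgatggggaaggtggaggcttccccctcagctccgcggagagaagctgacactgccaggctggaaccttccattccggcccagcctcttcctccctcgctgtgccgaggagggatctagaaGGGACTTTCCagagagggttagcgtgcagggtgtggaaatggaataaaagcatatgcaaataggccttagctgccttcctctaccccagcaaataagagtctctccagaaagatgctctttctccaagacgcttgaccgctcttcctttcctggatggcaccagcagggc
MIR155HG, chr21:25561895-25562194, plus strand: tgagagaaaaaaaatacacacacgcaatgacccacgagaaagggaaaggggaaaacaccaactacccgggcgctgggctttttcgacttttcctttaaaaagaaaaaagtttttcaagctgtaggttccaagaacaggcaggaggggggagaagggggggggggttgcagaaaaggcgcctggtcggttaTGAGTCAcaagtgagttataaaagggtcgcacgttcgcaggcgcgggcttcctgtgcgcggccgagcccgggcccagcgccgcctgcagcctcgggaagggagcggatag
The MIR3142HG window held 1 NF-kB match, beginning 120 bases before the start, and the MIR155HG window held 1 AP-1 match, beginning 60 bases before the start. Of 35116 promoter windows of the same length, 11.3% held an NF-kB match and 4.95% an AP-1 match. These matches describe letters in the reference sequence, and no binding was measured. In GENCODE 29 both host genes start before the RefSeq starts used here, at chr5:160438594 for MIR3142HG and chr21:25561909 for MIR155HG. By that annotation both matches lie inside the host genes.

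Library totals were 1045482 counts for untreated cells, 966943 for 3 min plasma and 615645 for 5 min plasma, so the 5 min library was the shallowest and 1 count there was worth 1.62 CPM. Levels are given in CPM, the count scaled to the library total, with exact 95% binomial intervals, and ratios with exact 95% intervals after TMM scaling, which matches library sizes on the miRNAs that are neither extreme in ratio nor in abundance. Both kinds of interval cover counting error only. A mature miRNA is read whole, so CPM needs no correction for length, but adapter ligation favours some ends, and levels of different miRNAs in a library are not molar amounts.

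miR-146a-5p, the paralog tied most directly to NF-kB, had 1319 counts in untreated cells, 1442 after 3 min and 1139 after 5 min of plasma. Its level was 1262 CPM in untreated cells, with an interval of 1194 to 1332. It was 1491 CPM after 3 min, between 1415 and 1570, and 1850 CPM after 5 min, between 1744 and 1961. The level was higher at each longer exposure, and the 3 counting intervals did not overlap. Its abundance rank among the listed miRNAs was 57 in untreated cells, 52 after 3 min and 44 after 5 min.

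miR-146b-5p had 1337, 1421 and 932 counts in untreated, 3 min and 5 min cells. Those counts were 1279 CPM in untreated cells (1211 to 1349), 1470 CPM after 3 min (1394 to 1548) and 1514 CPM after 5 min (1418 to 1614). The plasma libraries lay above the untreated one, and their own intervals overlapped. Its rank was 55, 53 and 50 in the same order.

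miR-155-5p was the least abundant of the 3, with 838, 789 and 540 counts in untreated, 3 min and 5 min cells. Its level was 802 CPM in untreated cells (748 to 858), 816 CPM after 3 min (760.0 to 875) and 877 CPM after 5 min (805 to 954). All 3 intervals overlapped, so a difference in its level between these libraries was not detectable beyond counting error. Its rank was 68, 65 and 66. For all 3, a change in the number of cells of a kind and one in RNA per cell cannot be told apart in bulk libraries.

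**Figure D1:**
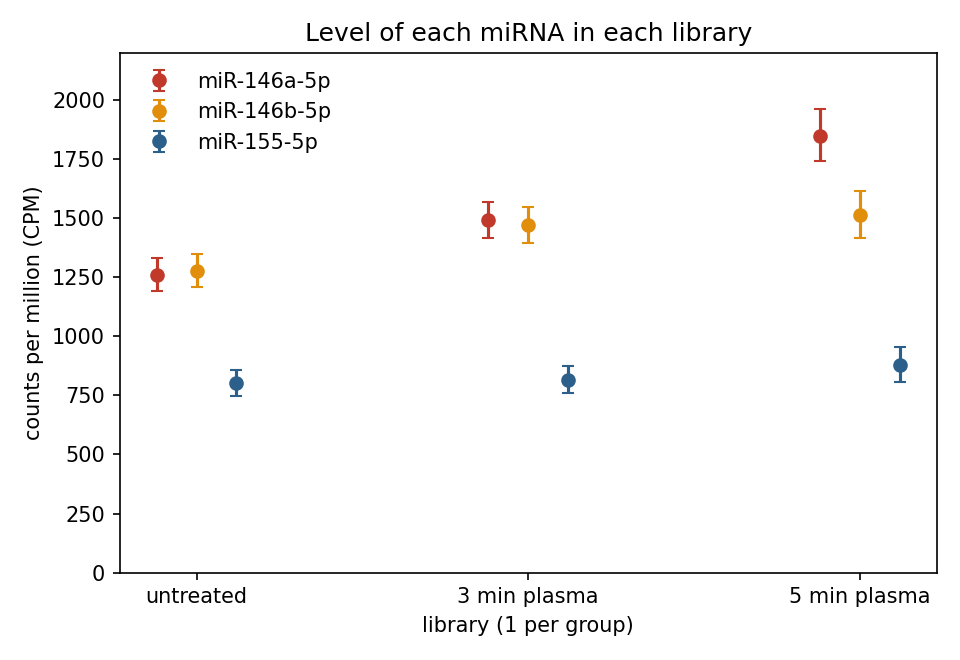
Level of miR-146a-5p, miR-146b-5p and miR-155-5p in CPM (vertical axis, from 0) in the untreated, 3 min and 5 min libraries (horizontal axis), as points with exact 95% binomial intervals for counting error. miR-146a-5p reaches 1850 CPM after 5 min, above 1514 CPM for miR-146b-5p, while miR-155-5p stays between 802 and 877 CPM.

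The order of the levels therefore differed between libraries only for the paralogs. In untreated cells miR-146a-5p and miR-146b-5p did not differ beyond counting error, and the same held after 3 min. After 5 min miR-146a-5p stood above miR-146b-5p with no overlap of their intervals. miR-155-5p was the lowest in every library, clear of both. Together the 3 took 0.334% of the untreated library (0.323 to 0.345). They took 0.378% of the 3 min library (0.366 to 0.390) and 0.424% of the 5 min library (0.408 to 0.441).

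The comparison of 3 min plasma with untreated cells concerned the shorter exposure. miR-146a-5p was 1.19-fold higher (1.11 to 1.29), with 1442 counts where the TMM-scaled untreated level would have given 1209. miR-146b-5p was 1.16-fold higher (1.08 to 1.25), with 1421 counts against 1225 at the TMM-scaled untreated level. miR-155-5p had a ratio of 1.03 (0.931 to 1.13). None of the 3 reached 1.5-fold in either direction, as 12.1% of the 231 measured miRNAs did, nor 2-fold, as 3.03% did. On the log2 scale the ratios were 0.25 (0.15 to 0.36), 0.21 (0.11 to 0.32) and 0.04 (-0.10 to 0.18) for miR-146a-5p, miR-146b-5p and miR-155-5p, beside a median of 0.05 and an SD of 0.48 over all measured miRNAs. From the highest ratio down they ranked 56, 68 and 122 of 231.

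The comparison of 5 min plasma with untreated cells covered the longer exposure. miR-146a-5p was 1.46-fold higher (1.34 to 1.58), an excess of 356 counts over the 783 that its TMM-scaled untreated level would have given. miR-146b-5p was 1.17-fold higher (1.08 to 1.28), with 932 counts where 793 would have matched the TMM-scaled untreated level. miR-155-5p had a ratio of 1.09 (0.973 to 1.21), an interval that held 1. Again none reached 1.5-fold, as 29.0% of all measured miRNAs did, nor 2-fold, as 13.0% did. The log2 ratios were 0.54 (0.43 to 0.66), 0.23 (0.11 to 0.35) and 0.12 (-0.04 to 0.28) in that order, against a median of 0.05 and an SD of 0.88 over all 231.

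Many of the wide ratios in that set belonged to scarce miRNAs. A mean of 1000 counts or more was reached by 58 miRNAs, which include both miR-146 paralogs. Their 5 min log2 ratio had an SD of 0.37 and a median of -0.11. In that group miR-146a-5p had the fourth highest ratio after 5 min and miR-146b-5p ranked 13. At 1.5-fold, 7 of those 58 were past the threshold after 5 min and 0 after 3 min. Over all 231, miR-146a-5p ranked 44, miR-146b-5p 80 and miR-155-5p 98 after 5 min.

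**Figure D2:**
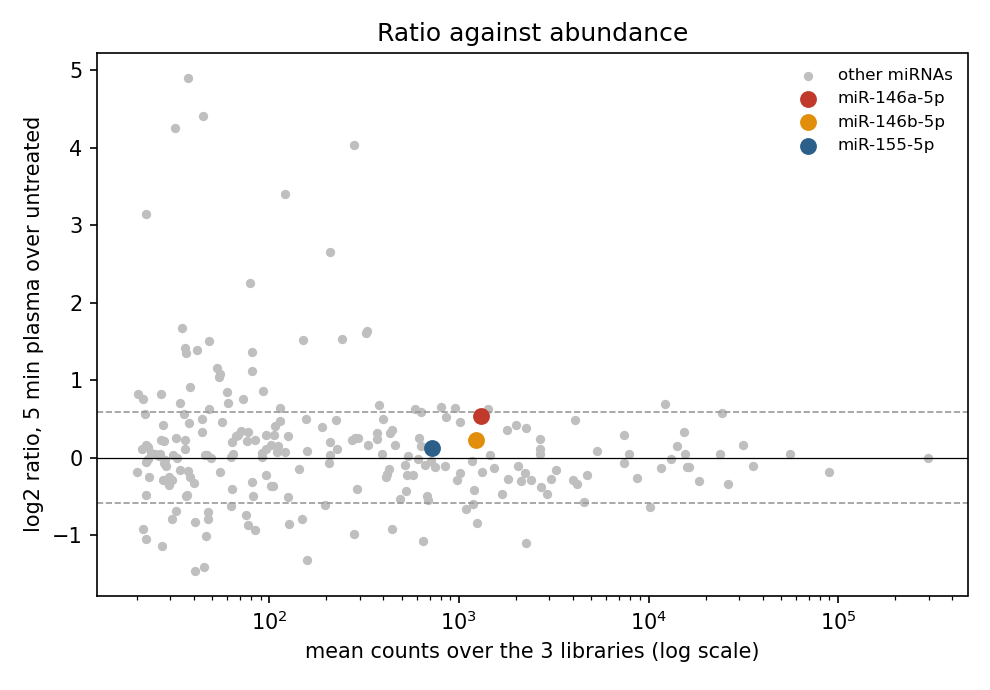
Log2 ratio of 5 min plasma over untreated cells (vertical axis) against the mean count over the 3 libraries (horizontal axis, log scale) for the 231 measured miRNAs, each a point, with dashed lines at 1.5-fold. miR-146a-5p at 0.54 lies near the upper edge of the miRNAs of its abundance, and miR-146b-5p at 0.23 and miR-155-5p at 0.12 lie among them.

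The comparison of 5 min with 3 min plasma separated the paralogs. miR-146a-5p stood 1.22-fold above its 3 min level (1.13 to 1.32), with 1139 counts where the TMM-scaled 3 min level would have given 934. miR-146b-5p had a ratio of 1.01 (0.931 to 1.10) and miR-155-5p one of 1.06 (0.945 to 1.18), both with intervals that held 1. None of the 3 reached 1.5-fold, as 21.6% of the measured miRNAs did, nor 2-fold, as 7.36% did. miR-146a-5p ranked 56 of 231 and had the third highest ratio of the 58 abundant miRNAs.

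These directions were checked under 8 scalings of the libraries. miR-146a-5p was higher after plasma in each of them at both exposures, at log2 0.18 to 0.25 after 3 min and 0.33 to 0.55 after 5 min, and it reached 1.5-fold in none. miR-146b-5p also kept its direction against untreated cells, but its 5 min ratio went as low as 0.02. The sign changed with scaling for miR-155-5p in all 3 comparisons and for miR-146b-5p in 5 min against 3 min. The 2 scalings computed over all listed miRNAs moved the median of the measured miRNAs by -0.17 and -0.21 after 5 min. A scaling moves each miRNA and this median by the same amount, so the distance between them is the same in every scaling. After 5 min miR-146a-5p stood 0.49 above the median on the log2 scale, miR-146b-5p 0.19 and miR-155-5p 0.07. After 3 min these distances were 0.20, 0.16 and -0.01.

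**Figure D3:**
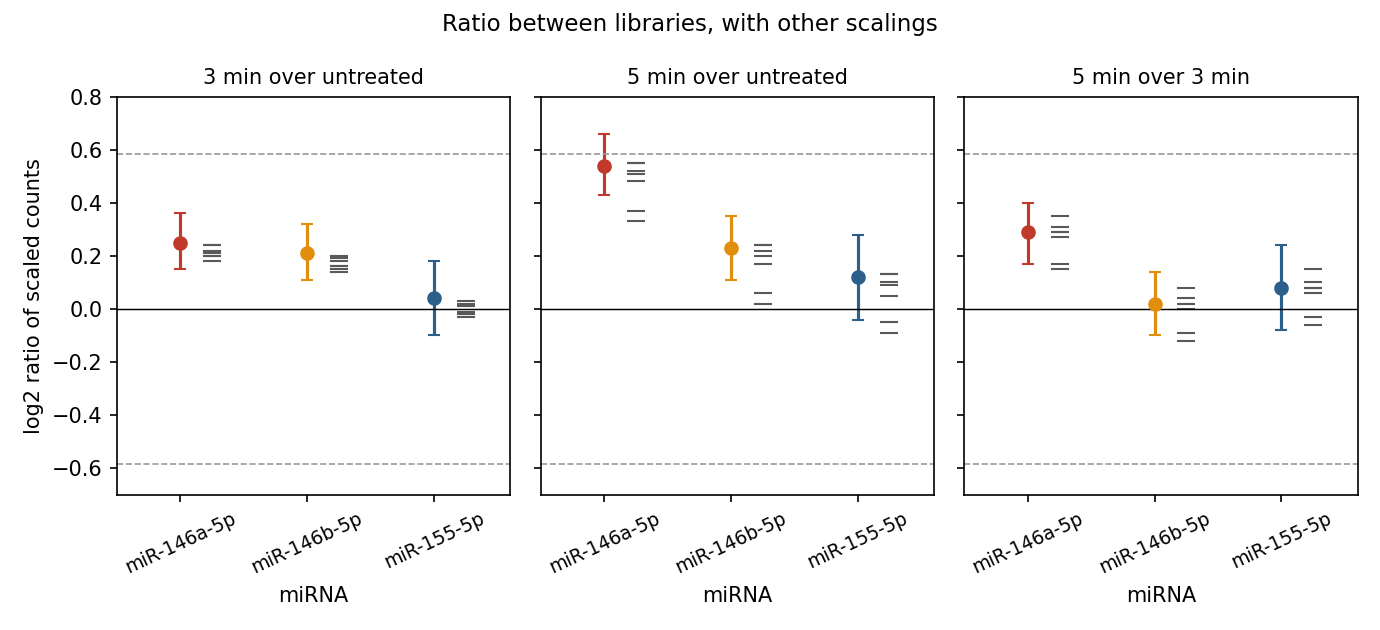
Log2 ratio of scaled counts (vertical axis) for the 3 miRNAs (horizontal axis) in each comparison (panels), as points with exact 95% counting intervals; grey dashes beside each point are the other scalings of the libraries and dashed lines mark 1.5-fold. miR-146a-5p stays above 0 in every panel under every scaling shown, while the dashes of miR-155-5p fall on both sides of 0.

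Ratios of 2 miRNAs within a library need no scaling at all. miR-146a-5p and miR-146b-5p were near parity in untreated cells, at 0.987 counts of miR-146a-5p per count of miR-146b-5p (0.914 to 1.07), and after 3 min, at 1.01 (0.942 to 1.09). After 5 min the ratio was 1.22 (1.12 to 1.33), and miR-146a-5p made up 55.0% of the miR-146 counts (52.8 to 57.2). Set against untreated cells, the 5 min ratio was 1.24 times as high (1.10 to 1.39, exact conditional interval of the odds ratio), and against 3 min cells 1.20 times as high (1.07 to 1.35). For 3 min against untreated cells it was 1.03 times as high (0.924 to 1.14), an interval that held 1.

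In untreated cells the ratio of miR-146a-5p to miR-155-5p was 1.57 (1.44 to 1.72). The same ratio was 1.83 in 3 min cells (1.67 to 2.00) and 2.11 in 5 min cells (1.90 to 2.34). It was 1.16 times as high after 3 min as in untreated cells (1.03 to 1.32) and 1.34 times as high after 5 min (1.17 to 1.54). In 5 min cells it was 1.15 times as high as in 3 min cells (1.01 to 1.32). The brake miRNA thus made up a larger part of the pair at each longer exposure in these libraries. The within-library intervals of untreated and 3 min cells overlapped, as did those of 3 min and 5 min cells. For miR-146b-5p over miR-155-5p the ratio was 1.60 in untreated cells (1.46 to 1.74), 1.80 in 3 min cells (1.65 to 1.97) and 1.73 in 5 min cells (1.55 to 1.92). Its intervals overlapped throughout, and after 5 min it was 1.08 times the untreated ratio (0.941 to 1.24).

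**Figure D4:**
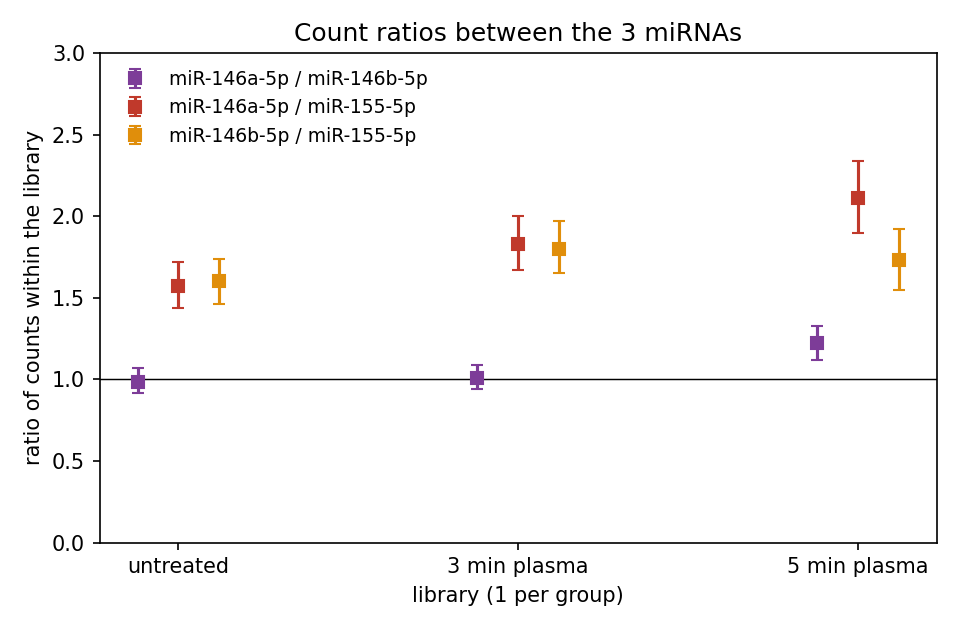
Ratio of counts between pairs of the 3 miRNAs within each library (vertical axis, from 0) for untreated, 3 min and 5 min cells (horizontal axis), as squares with exact 95% counting intervals and a line at 1. miR-146a-5p over miR-146b-5p sits at 0.987 and 1.01 in untreated and 3 min cells and at 1.22 after 5 min, and miR-146a-5p over miR-155-5p is highest after 5 min at 2.11.

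If reads of the paralogs cannot be told apart, only their sum can be read. The summed miR-146 counts were 2656 in untreated cells, 2863 after 3 min and 2071 after 5 min, which were 2540, 2961 and 3364 CPM. The summed log2 ratio was 0.39 after 5 min, between the 0.54 of miR-146a-5p and the 0.23 of miR-146b-5p.

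Nearly all reads of the 3 hairpins came from the 5p arms, which are the known guide strands. The opposite arm of MIR146A, miR-146a-3p, had 0, 3 and 0 counts in untreated, 3 min and 5 min cells, or 0.0769% of all 3903 counts from the hairpin (0.0159 to 0.224). miR-146b-3p had 0 counts in all 3 libraries beside 3690 of the 5p arm. The floor of 3 counts would be 0.0813% of these, a value that is not an exact interval like the others here. miR-155-3p had 1, 0 and 3 counts, or 0.184% of the hairpin's counts (0.0502 to 0.471). At these counts no change in arm use between libraries could be detected. miR-3142, whose hairpin shares the host transcript of MIR146A, had 0 counts in untreated cells, 0 after 3 min and 2 after 5 min, under the floor of 3 counts.

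miR-146a, miR-155 and miR-223 are also abundant in white blood cells, so markers of such cells were read in the same libraries. The 7 leukocyte and blood markers summed to 17 counts in untreated cells, 21 after 3 min and 14 after 5 min, or 16.3, 21.7 and 22.7 CPM. The myeloid miR-223-3p had 0 counts in every library, miR-142-3p had 1, 4 and 4, and the lymphoid miR-150-5p had 7, 4 and 4. Of the 6 melanocytic markers, miR-204-5p had 2608, 2535 and 1257 counts in untreated, 3 min and 5 min cells, and miR-211-5p, encoded in the pigment-cell gene TRPM1, had 128, 97 and 65. The other 4, miR-506-3p, miR-508-3p, miR-509-3p and miR-514a-3p of an X-linked cluster, had 0 in all 3. After 5 min miR-204-5p was 0.812 times its untreated level (0.759 to 0.869), the opposite direction to miR-146a-5p, and its part in the result was not tested.

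Other miRNAs tied to NF-kB did not share 1 direction. Of 16 listed, 11 were measured; 0 were at least 1.5-fold from untreated after 3 min, against 12.1% of all measured miRNAs. After 5 min 1 was higher, against 17.3% of all measured miRNAs, and 0 were lower, against 11.7%. The list's median log2 ratio was 0.03 after 3 min and -0.01 after 5 min, beside 0.05 and 0.05 over all 231, and its sign changed with scaling at both exposures. In 5 min against 3 min cells 0 were 1.5-fold higher, against 13.0% of all measured, and 1 was lower, against 8.66%. Under other scalings as many as 1, miR-199a-5p, was higher in that comparison, at a log2 ratio of up to 0.62. The background shares also moved: with TMM over all listed miRNAs, 27 of the 231 were 1.5-fold higher and 40 lower after 5 min against untreated, where the values above rest on 40 and 27, and 23 were higher and 31 lower in 5 min against 3 min, where they rest on 30 and 20.

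Among miRNAs reported as raised by NF-kB, miR-221-3p, a repressor of CDKN1B that promotes cell division, had the highest ratios, at log2 0.49 after 3 min and 0.57 after 5 min. Its neighbour in the same transcript, miR-222-3p, was at 0.38 after 3 min and -0.34 after 5 min, and was the 1 listed miRNA past 1.5-fold lower in 5 min against 3 min cells, at -0.72. miR-9-5p, which represses NFKB1, was at -0.12 after 3 min and 0.15 after 5 min, and the sign after 5 min changed with scaling. miR-21-5p, by far the most abundant miRNA, stood at 0.02 and -0.01, signs that also changed. miR-147b, induced by Toll-like receptors in macrophages, was at -0.18 and -0.33 on 53, 43 and 25 counts in untreated, 3 min and 5 min cells, with intervals that held 0.

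Further members of that group were too scarce to compare. miR-224-5p had 0 counts throughout, miR-132-3p had 5, 3 and 1, and miR-301a-3p had 13, 4 and 1 in untreated, 3 min and 5 min cells. For miR-301a-3p the 5 min ratio was 0.130 with a counting interval of 0.00305 to 0.863.

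Among miRNAs reported to repress the pathway, miR-199a-5p, which targets the kinase IKBKB, was the 1 past 1.5-fold after 5 min, at 1.56-fold (1.19 to 2.04) with 109 counts against 118 in the deeper untreated library. Its log2 ratio was as low as 0.43 under other scalings, short of 1.5-fold. Its counts, like those of miR-181b-5p and let-7i-5p, can include reads of close paralogs. miR-16-5p, a repressor of the kinase CHUK in monocytes, was at 1.41-fold after 5 min (1.22 to 1.63), and miR-181b-5p, which represses the importin KPNA4 that carries NF-kB into the nucleus, was at 1.19-fold (1.06 to 1.34). miR-149-5p, a repressor of the adaptor MYD88, was 0.877 times the untreated level (0.807 to 0.953), let-7i-5p, which targets the receptor TLR4, 0.882 times (0.874 to 0.891) and miR-125b-5p, which represses TNF mRNA, 0.929 times (0.914 to 0.944). Of these 6 measured repressors, 3 thus lay above and 3 below their untreated level after 5 min, in each scaling. miR-15a-5p had 7, 9 and 14 counts in untreated, 3 min and 5 min cells, below the count minimum, and miR-223-3p had none. For miR-15a-5p the 5 min ratio was 3.37 with a counting interval of 1.27 to 9.87.

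**Figure D5:**
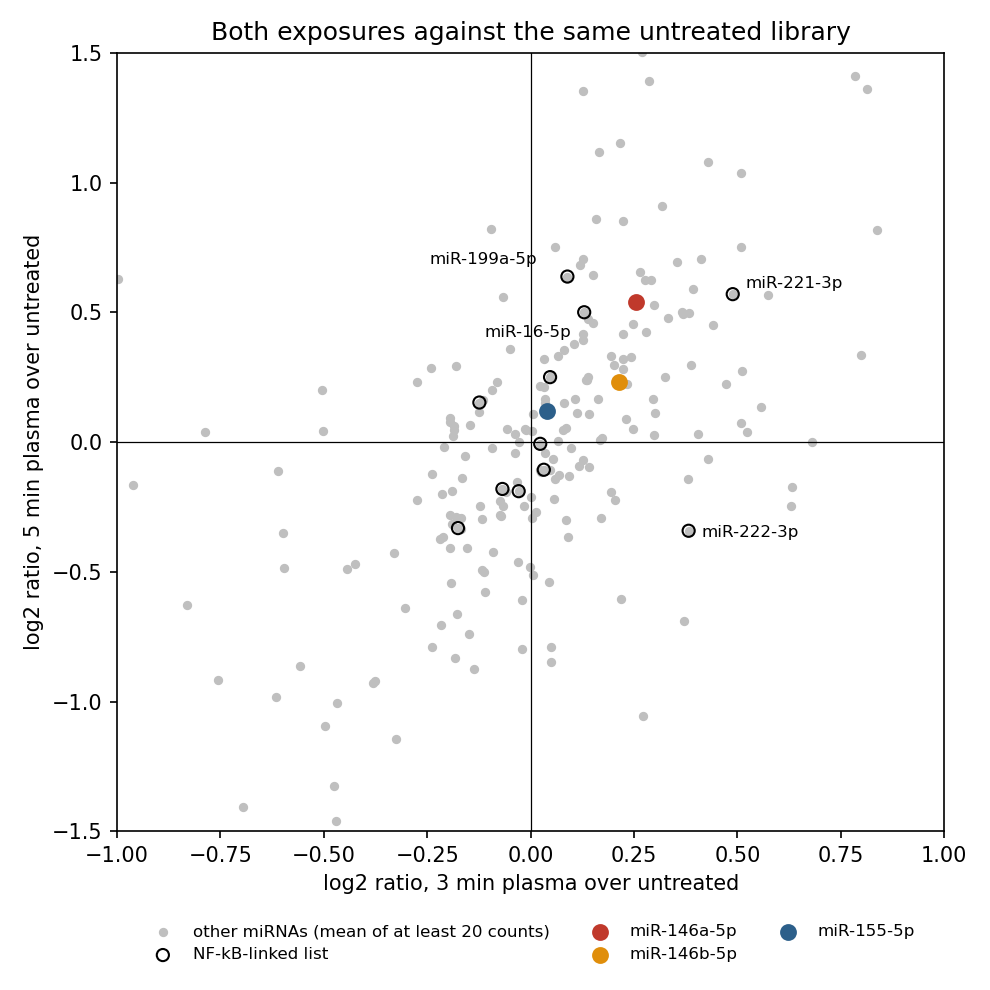
Log2 ratios of 3 min plasma (horizontal axis) and 5 min plasma (vertical axis) over the same untreated library for the measured miRNAs, each a point, with the 3 inflammatory miRNAs in colour and the NF-kB-linked list circled; 16 of the 231 lie outside the axes. The untreated library enters both axes, and the circled miRNAs lie on both sides of 0 while miR-146a-5p sits at 0.25 and 0.54.

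The miRNAs whose pair of log2 ratios lay nearest to each member, by Euclidean distance over 231 miRNAs and 3 libraries, were different for each. Nearest to miR-146a-5p were miR-101-3p at 0.30 and 0.53, miR-374b-5p at 0.25 and 0.45, and miR-181a-5p at 0.28 and 0.63, for 3 min and 5 min in turn. Nearest to miR-146b-5p were miR-106a-5p, miR-362-5p and miR-135b-3p, which had at most 78 counts in a library. Nearest to miR-155-5p were miR-361-5p, miR-1827, which had at most 25 counts in a library, and the abundant miR-27b-3p. Within a distance of 0.1 lay 5 miRNAs for miR-146a-5p, 9 for miR-146b-5p and 13 for miR-155-5p. The paralog miR-146b-5p stood at place 38 of 230 from miR-146a-5p, at a distance of 0.312.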

How the data were processed

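Small RNA from 3 SK-MEL-2 cultures was sequenced, 1 library per group. Total RNA was taken with Trizol and libraries were made with a NEBNext small-RNA kit, per the labels' protocols. The files deposited by the authors hold a whole-number count of reads for each mature miRNA, with no scaling visible in the values. Bowtie2, bedtools and edgeR were named without a role, per the submitters' processing notes. Not given in the sources used here are adapter trimming, the build and miRNA annotation, the use of strand and the handling of multi-mapped reads. No molecular identifiers were counted, so PCR copies of a molecule count as several reads.

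Ratios used TMM factors (edgeR 4.0.16, R 4.3.3) from the 231 miRNAs that averaged 20 counts or more; the factors were 1.000, 0.991 and 1.008 for untreated, 3 min and 5 min. Levels and ratios carry exact Clopper-Pearson 95% intervals, and changes in a within-library ratio carry exact conditional intervals. A value of 0 was read against a floor of 3 counts, which is 2.87, 3.10 and 4.87 CPM in the same order. Sizes of at least 1.5-fold and 2-fold were counted. Alternatives were other scalings (DESeq2 1.42.0 size factors, library totals, TMM over other sets), other count minimums, and sums of paralogs or arms. The ratio intervals were tested on simulated counts that held counting error only, which leaves out variation between cultures or libraries. Named miRNAs were the members, their opposite arms, the NF-kB-linked list, the cell markers and the 3 nearest patterns per member; miR-3142 and miR-7153-5p were added after their values were seen. The members and lists were chosen with earlier results of these data known. Of the listed miRNAs, 2281 matched the RefSeq table by name. Python 3.11.15 with scipy 1.17.1 was used.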

Additional observations from a re-analysis of the deposited data

How the results depend on the processing

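No paired analysis was possible because each group had 1 library, and for the same reason no replicate could be left out. Of 78 alternative values for the ratios of the 3 miRNAs, 12 lay outside the counting interval of the main value. After 5 min against untreated, TMM over all listed miRNAs gave log2 ratios of 0.37 for miR-146a-5p, 0.06 for miR-146b-5p and -0.05 for miR-155-5p, and DESeq2 size factors over all listed miRNAs gave 0.33, 0.02 and -0.09. With those size factors, 5 min against 3 min gave 0.15 for miR-146a-5p and -0.12 for miR-146b-5p. Summing the paralogs gave 0.39 after 5 min and 0.16 for 5 min against 3 min. Summing the arms moved no ratio beyond its interval. The cause of these shifts was not tested.

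The number of miRNAs past a size changed with the count minimum, and so did their share of the miRNAs compared. TMM factors were recomputed at each minimum. Of 349 miRNAs at a minimum of 5 counts, 11.5% were 1.5-fold higher after 3 min and 23.5% after 5 min. Of 231 at a minimum of 20, these shares were 6.93% and 17.3%. Of 131 at a minimum of 100, they were 3.05% and 11.5%. The cause was not tested. In the 3 min comparison with untreated, 16 were 1.5-fold higher, 12 were 1.5-fold lower, 5 were 2-fold higher and 2 were 2-fold lower; a minimum of 5 counts gave 40, 38, 18 and 17, and a minimum of 100 counts gave 4, 3, 1 and 1. In the 5 min comparison with untreated these were 40, 27, 22 and 8; a minimum of 5 gave 82, 54, 59 and 24, and a minimum of 100 gave 15, 12, 7 and 3. In 5 min against 3 min they were 30, 20, 15 and 2, then 89, 44, 58 and 17, then 8, 5, 5 and 0. The scalings over all listed miRNAs turned the balance at 1.5-fold. TMM over all listed miRNAs gave 27 higher and 40 lower after 5 min, and 23 higher and 31 lower in 5 min against 3 min. DESeq2 size factors over all listed miRNAs gave 27 and 42 after 5 min, and 21 and 35 in 5 min against 3 min. At 2-fold, TMM over all listed gave 5 higher and 4 lower after 3 min, 18 and 16 after 5 min, and 14 and 4 in 5 min against 3 min, and those DESeq2 size factors gave 5 and 4, 18 and 17, and 14 and 5. A minimum of 5 counts left 13 of the NF-kB-linked list and 349 of all miRNAs. The values that follow keep the main TMM factors, so their shares differ from the counts above, which used factors recomputed at that minimum. Of the 13, 0 were 1.5-fold higher and 1 lower after 3 min, against 12.9% and 10.0% of the 349. After 5 min 2 were higher and 1 lower, against 26.4% and 14.0%, and in 5 min against 3 min 1 was higher and 2 lower, against 25.8% and 12.6%.

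The opposite arms, miR-3142 and the leukocyte markers had at most a few counts in each library. The cause of these low counts was not tested.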
